A study of Mus musculus with 7 samples.

Results

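Oxidative phosphorylation genes were followed in RNA from mouse soft tissue, muscle and soft callus per the labels, collected on day 5 from around a 1.5-mm drill hole made in the mandible. IL17KO mice (Il17af-/-, without interleukins 17A and 17F) gave 3 libraries and their WT littermates 4, and all of them carried the drill hole, so no uninjured tissue stands beside them. The labels give no sex, no animal age and no strain beyond the genotype. Genes were taken by name: Nduf, Uqcr, Sdha to Sdhd, Atp5, Cox4 to Cox8 and the mitochondrial mt-Nd, mt-Co, mt-Cytb and mt-Atp genes. Of the 49164 gene rows with counts, 127 carried such a name and 108 had at least 10 counts over the 7 libraries.

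The respiratory chain of the inner mitochondrial membrane passes electrons from NADH through complex I, or from succinate through complex II, to complex III and then complex IV, which hands them to oxygen. Complexes I, III and IV pump protons, and complex V, the ATP synthase, lets them flow back and makes ATP. Most subunits are encoded in the nucleus and imported, while the mitochondrial genome encodes a small set of core subunits, so every complex but complex II is built from both genomes. Skeletal muscle is rich in mitochondria and uses its own forms of some complex IV subunits.

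The 108 genes comprise 95 nuclear and 13 mitochondrial ones. Of the nuclear genes, 45 belong to complex I, among them 8 assembly factors (Ndufaf genes), which help to build the complex without staying in it. Complexes II, III, IV and V have 4, 8, 18 and 17 nuclear genes, and 3 further rows are pseudogenes (Atp5k-ps2, Ndufa12-ps and Cox7c-ps1). The mitochondrial genes give 7 subunits to complex I, 1 to complex III, 3 to complex IV and 2 to complex V. The other 19 rows with such names had under 10 counts in all, and these include Cox8c and Cox7b2, both at 0 counts, and Cox6c2 with 1 count.

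Total counts ran from 18539904 to 26271176 per library. The targeted gene Il17a had 0 counts in every library, and Il17f had 1, 1 and 0 counts in IL17KO and 0 in each WT library, so the counts do not check the genotype labels at this depth. Contractile muscle genes were abundant in every library, with sums over 25 genes of 64200, 39592 and 123710 CPM in IL17KO replicates 1 to 3, against 52484, 57781, 20291 and 65554 CPM in WT replicates 1 to 4. CPM are counts scaled to a common depth on TMM-scaled library sizes. IL17KO replicate 3 had the highest of these sums and WT replicate 3 the lowest. In bulk tissue, fewer cells of a type and less RNA per cell cannot be told apart.

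None of the 104 tested genes passed the test of IL17KO against WT. The edgeR quasi-likelihood test called 0 of them at an adjusted p under 0.05, against 24 of 15399 tested genes (0.156%), and 0 of them had an unadjusted p under 0.05 (3.04% of all tested genes). DESeq2 called 0 of them (0.364% of all tested genes) and limma voom 0 (0.416%), and 0 had an unadjusted p under 0.05 by either tool, against 3.03% of all tested genes by DESeq2 and 9.44% by limma voom. The smallest edgeR p was 0.124, for mt-Nd3 (adjusted p = 0.987). The groups overlapped for every one of the 104 genes, while 3.89% of all tested genes did not overlap. The 4 genes that were not tested, for low counts, were mt-Nd4l and the 3 pseudogenes.

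The fitted differences nonetheless had mostly the same sign. Of the 104 genes, 95 had a log2 fold change above 0, IL17KO over WT, where 50.6% of all tested genes did. The median was 0.22 for the 92 tested nuclear genes and 0.35 for the 12 tested mitochondrial genes, against 0.0026 for all tested genes. The sign changed with single libraries. IL17KO replicate 3 was the highest of the 7 libraries for 92 of the 104 genes (27.2% of all tested genes), and WT replicate 3 was the lowest for 74 (26.2% of all tested genes). Without IL17KO replicate 3 only 19 of the 104 genes had a positive fold change, and the medians were −0.057 for nuclear and −0.029 for mitochondrial genes. Without WT replicate 3, 91 of the 104 were positive, and the medians were 0.10 and 0.15. With the muscle level of each library as a covariate 27 of 104 were positive.

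**Figure D1:**
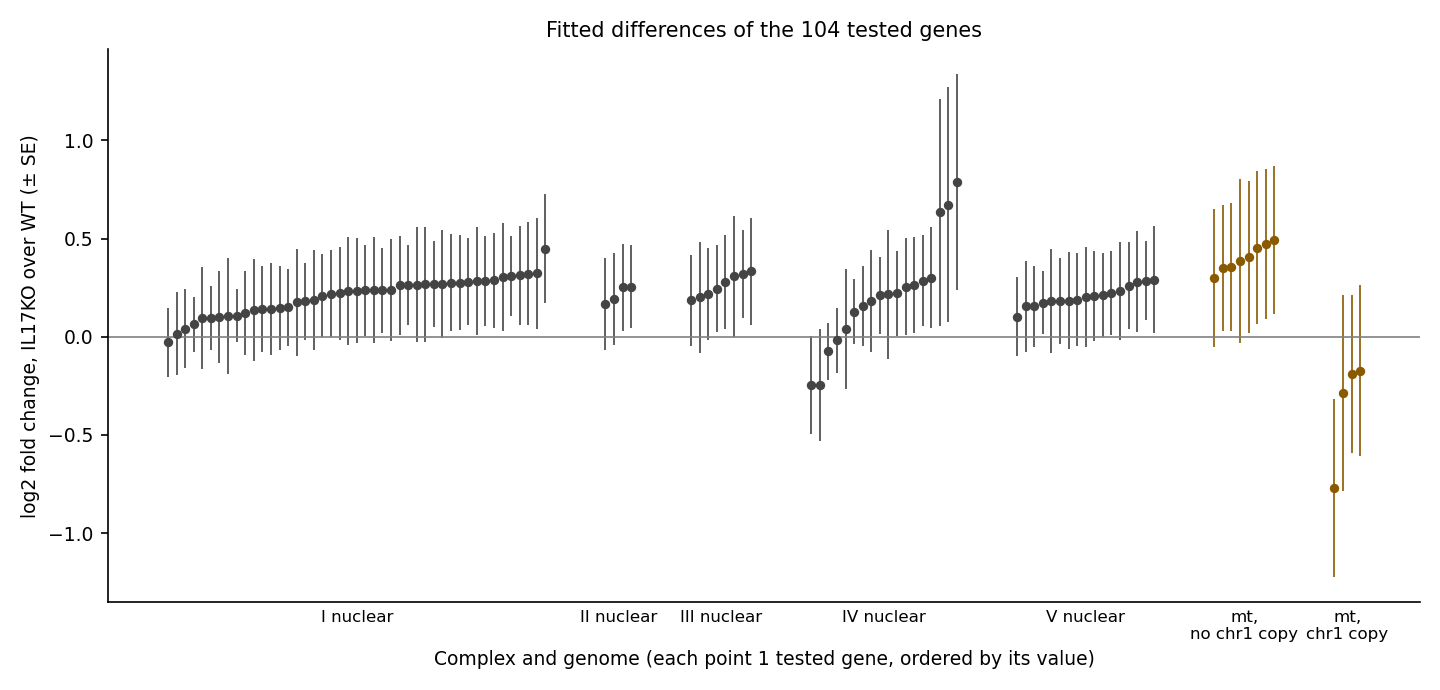
Fitted log2 fold change, IL17KO over WT, with its SE, for each of the 104 tested genes, grouped by complex and genome. Most points lie a little above 0 with bars that reach 0 or come near it. The 3 highest points of complex IV are Cox6a2, Cox7a1 and Cox8b, and the 4 mitochondrial genes with a chromosome 1 copy lie below 0.

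Summed over the 95 nuclear genes, the level was 11203, 8349 and 15759 CPM in IL17KO replicates 1 to 3, against 9883, 11294, 7567 and 11292 CPM in WT replicates 1 to 4. The groups overlapped, since IL17KO replicate 2 lay below 3 of the WT libraries. The means were 11770 ± 3738 CPM in IL17KO and 10009 ± 1759 CPM in WT (SD, n = 3 and 4), a ratio of 1.18.

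The 13 mitochondrial genes took up 10.9%, 8.10% and 15.0% of all counts in IL17KO replicates 1 to 3, against 10.9%, 9.77%, 5.71% and 10.7% in WT replicates 1 to 4. Their summed level was 120760 ± 47797 CPM in IL17KO and 90865 ± 26405 CPM in WT (SD, n = 3 and 4), a ratio of 1.33. For both sums the SD within IL17KO was larger than the difference between the means, and the SD within WT was slightly smaller than it. The mitochondrial sum was 9.99, 9.35 and 10.9 times the nuclear sum in the IL17KO libraries and 11.0, 8.67, 6.85 and 9.27 times in the WT libraries.

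**Figure D2:**
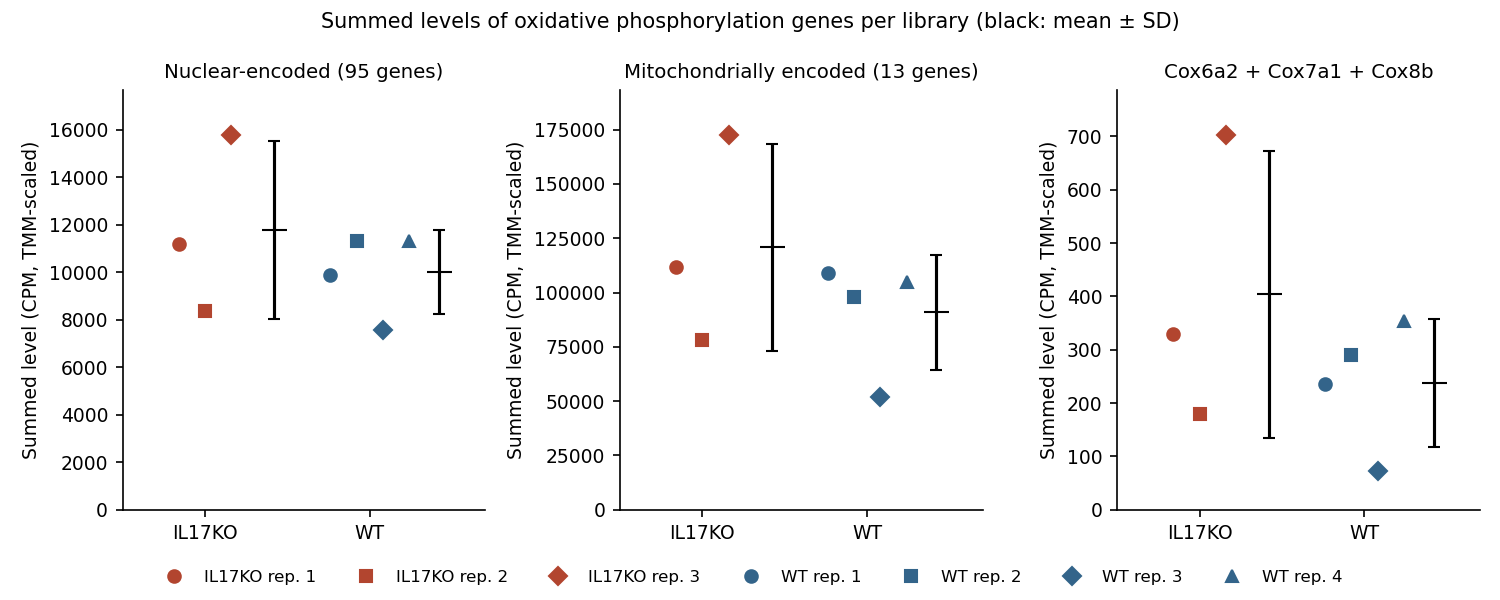
Summed CPM per library of the nuclear genes, the mitochondrial genes and the 3 muscle forms of complex IV subunits, IL17KO left and WT right, with the mean ± SD in black. In each panel IL17KO replicate 3 is the highest point and WT replicate 3 the lowest, and the groups overlap.

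The fitted medians of the 5 complexes lay between 0.20 and 0.28. Complex I, which takes electrons from NADH, had a median log2 fold change of 0.24 over 51 tested genes of both genomes, and 49 of them were positive. Complex II had 0.22 over 4 genes, complex III 0.28 over 9, complex IV 0.21 over 21 and complex V 0.20 over 19. In the sums by complex IL17KO replicate 3 was highest and WT replicate 3 lowest in all 5 complexes, while the order of the libraries between them varied. The complex II sum, which holds nuclear genes alone, was 601, 485 and 868 CPM in IL17KO replicates 1 to 3 and 555, 564, 437 and 699 CPM in WT replicates 1 to 4. The 8 assembly factors of complex I, summed, stood at 118, 94.8 and 145 CPM in IL17KO and 116, 120, 96.1 and 118 CPM in WT, and here IL17KO replicate 2 was the lowest library.

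Levels per transcript length, as mean CPM per kb over all 7 libraries, put 8 of the 13 mitochondrial genes far above the nuclear ones. The other 5 ran from 0.523 for mt-Nd4l to 343 for mt-Co3, under the highest nuclear genes. mt-Cytb, the cytochrome b of complex III, stood at 19817 CPM per kb and mt-Nd1, a core subunit of complex I, at 19699. The highest nuclear gene was Atp5b, the catalytic beta subunit of ATP synthase, at 493 CPM per kb, followed by Uqcrb, a small complex III subunit, at 445 and Uqcrh, the hinge protein of complex III, at 407. Medians of the nuclear genes were 173 CPM per kb for complex V, 137 for complex IV, 134 for complex III, 79.5 for complex II and 71.0 for the complex I subunits. The complex I assembly factors were lower, at a median of 7.40 CPM per kb, and ran between 4.73 for Ndufaf6 and 40.6 for Ndufaf2.

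Among complex I genes the smallest nuclear p was that of Ndufb4, an accessory subunit of the membrane arm. Ndufb4 stood at 51.6, 33.0 and 77.7 CPM in IL17KO replicates 1 to 3, against 34.6, 49.0, 30.2 and 44.6 CPM in WT replicates 1 to 4. IL17KO replicate 2 lay under 3 WT libraries. The log2 fold change was 0.45 ± 0.28 (SE), with an edgeR adjusted p of 0.987, the value shared by nearly all of the genes below. Ndufa7, another accessory subunit, had 0.31 ± 0.20. Ndufa12, an abundant accessory subunit, stood at 182 ± 52.6 CPM in IL17KO and 154 ± 33.2 CPM in WT (SD, n = 3 and 4).

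In complex II, which is also the succinate dehydrogenase of the citric acid cycle, all 4 genes had positive log2 fold changes, between 0.17 and 0.25. Sdhd and Sdhc, its membrane anchors, had log2 fold changes of 0.25 ± 0.21 and 0.25 ± 0.22 (SE). Sdha, the flavoprotein that oxidizes succinate, was the most abundant, at 312, 254 and 436 CPM in IL17KO replicates 1 to 3, against 315, 284, 207 and 363 CPM in WT replicates 1 to 4. WT replicates 1, 2 and 4 lay inside the IL17KO range.

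All 8 nuclear genes of complex III had positive fold changes, between 0.19 and 0.33. Uqcrq and Uqcr10, small subunits, had 0.33 ± 0.27 and 0.32 ± 0.22 (SE). Uqcr10 stood at 70.9, 47.3 and 91.8 CPM in IL17KO replicates 1 to 3 and 55.3, 62.8, 43.4 and 62.9 CPM in WT replicates 1 to 4. IL17KO replicate 2 was within the WT range.

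The 17 nuclear genes of complex V had log2 fold changes between 0.10 and 0.29, and all were positive. Atp5b was at 987, 790 and 1355 CPM in IL17KO replicates 1 to 3, against 850, 862, 722 and 1053 CPM in WT replicates 1 to 4, a log2 fold change of 0.26 ± 0.22 (SE). Atp5g2, one of 3 genes for the c subunit of the rotor ring, had 0.28 ± 0.20 (SE), and a pseudogene 100% identical over 88.2% of its length makes its counts uncertain. That pseudogene, Gm10175, had at most 1 count in any library.

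Complex IV held the nuclear genes that varied most between libraries. Cox6a2, Cox7a1 and Cox8b encode the heart and skeletal muscle forms of subunits whose general forms are Cox6a1, Cox7a2 and Cox8a. Between the highest and the lowest library the 3 muscle forms varied 9.44-fold to 9.83-fold and the general forms 1.50-fold to 1.82-fold, where the median was 2.09-fold for all tested nuclear genes and 1.61-fold for all genes. Cox6a2 stood at 275, 153 and 570 CPM in IL17KO replicates 1 to 3, against 191, 234, 58.6 and 288 CPM in WT replicates 1 to 4. Cox6a1 stood at 66.7, 67.4 and 67.6 CPM in IL17KO and 53.1, 63.3, 88.8 and 66.9 CPM in WT. WT replicate 3 was thus the lowest library for the muscle form and the highest for the general form.

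The general subunits of this complex were close to the other nuclear genes. Cox5b, which binds zinc, stood at 255, 181 and 332 CPM in IL17KO replicates 1 to 3, against 199, 238, 156 and 247 CPM in WT replicates 1 to 4, a log2 fold change of 0.28 ± 0.23 (SE). Cox4i1, Cox6b1 and Ndufa4 had 0.22 ± 0.22, 0.16 ± 0.20 and 0.21 ± 0.33 (SE). Ndufa4, long counted with complex I, is grouped here with complex IV.

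The fitted log2 fold changes of the muscle forms were the 3 largest of all members, at 0.79 ± 0.55 for Cox6a2, 0.67 ± 0.60 for Cox7a1 and 0.63 ± 0.58 for Cox8b (SE, edgeR adjusted p = 0.987 for each). Those of the general forms were −0.018 ± 0.17 for Cox6a1, 0.21 ± 0.19 for Cox7a2 and −0.075 ± 0.15 for Cox8a. Without WT replicate 3 and IL17KO replicate 3 the muscle forms had −0.15, −0.53 and −0.40. The contractile muscle genes moved with them: all 25 had positive fold changes with a median of 0.60 and 0 called, and their mean log2 level, relative to the WT mean, was 0.54, −0.21 and 1.45 in IL17KO replicates 1 to 3 and 0.25, 0.37, −1.22 and 0.60 in WT replicates 1 to 4. The part of the muscle level in the complex IV values was not tested. With the muscle level of the same libraries as a covariate, Cox6a2 had a log2 fold change of 0.081, Cox7a1 −0.21 and Cox8b −0.17. Only the group term was tested in that fit, not the muscle term.

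Ratios within a library set each muscle form against its general form per transcript length. Cox6a2 stood at 3.47, 1.90 and 7.09 times Cox6a1 in IL17KO replicates 1 to 3, against 3.02, 3.10, 0.554 and 3.61 times in WT replicates 1 to 4. WT replicate 3 was the single library with more of the general form. The ratio of Cox8b to Cox8a was 0.723, 0.346 and 1.38 in IL17KO and 0.604, 0.704, 0.123 and 0.743 in WT. The ratio of Cox7a1 to Cox7a2 was 0.521, 0.383 and 1.07 in IL17KO and 0.547, 0.523, 0.186 and 0.822 in WT. For all 3 pairs IL17KO replicate 3 was highest, WT replicate 3 lowest and the groups overlapped.

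The other 3 pairs of this complex did not follow that order. Cox4i2, a form of subunit 4 known from lung and from low oxygen, was scarce, at 1.84, 1.37 and 2.09 CPM in IL17KO and 1.84, 1.78, 1.92 and 2.78 CPM in WT, with a log2 fold change of −0.25 ± 0.25 (SE). Its ratio to Cox4i1 per length was between 0.00597 and 0.00739 in IL17KO and between 0.00669 and 0.0116 in WT. Ndufa4l2, which low oxygen induces through HIF-1, stood at 12.8, 9.64 and 12.7 CPM in IL17KO and 9.06, 13.9, 21.8 and 10.8 CPM in WT, with −0.25 ± 0.28 (SE). Its ratio to Ndufa4 was 0.0647, 0.0718 and 0.0404 in IL17KO and 0.0452, 0.0549, 0.199 and 0.0604 in WT, so that the muscle-poor WT replicate 3 was the highest library. Cox6b2, the testis form, had at most 0.588 CPM in any library and a log2 fold change of 0.041 ± 0.31 (SE), and stood at 0.0025 ± 0.0011 times Cox6b1 in IL17KO and 0.0026 ± 0.00055 times in WT (SD, n = 3 and 4).

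**Figure D3:**
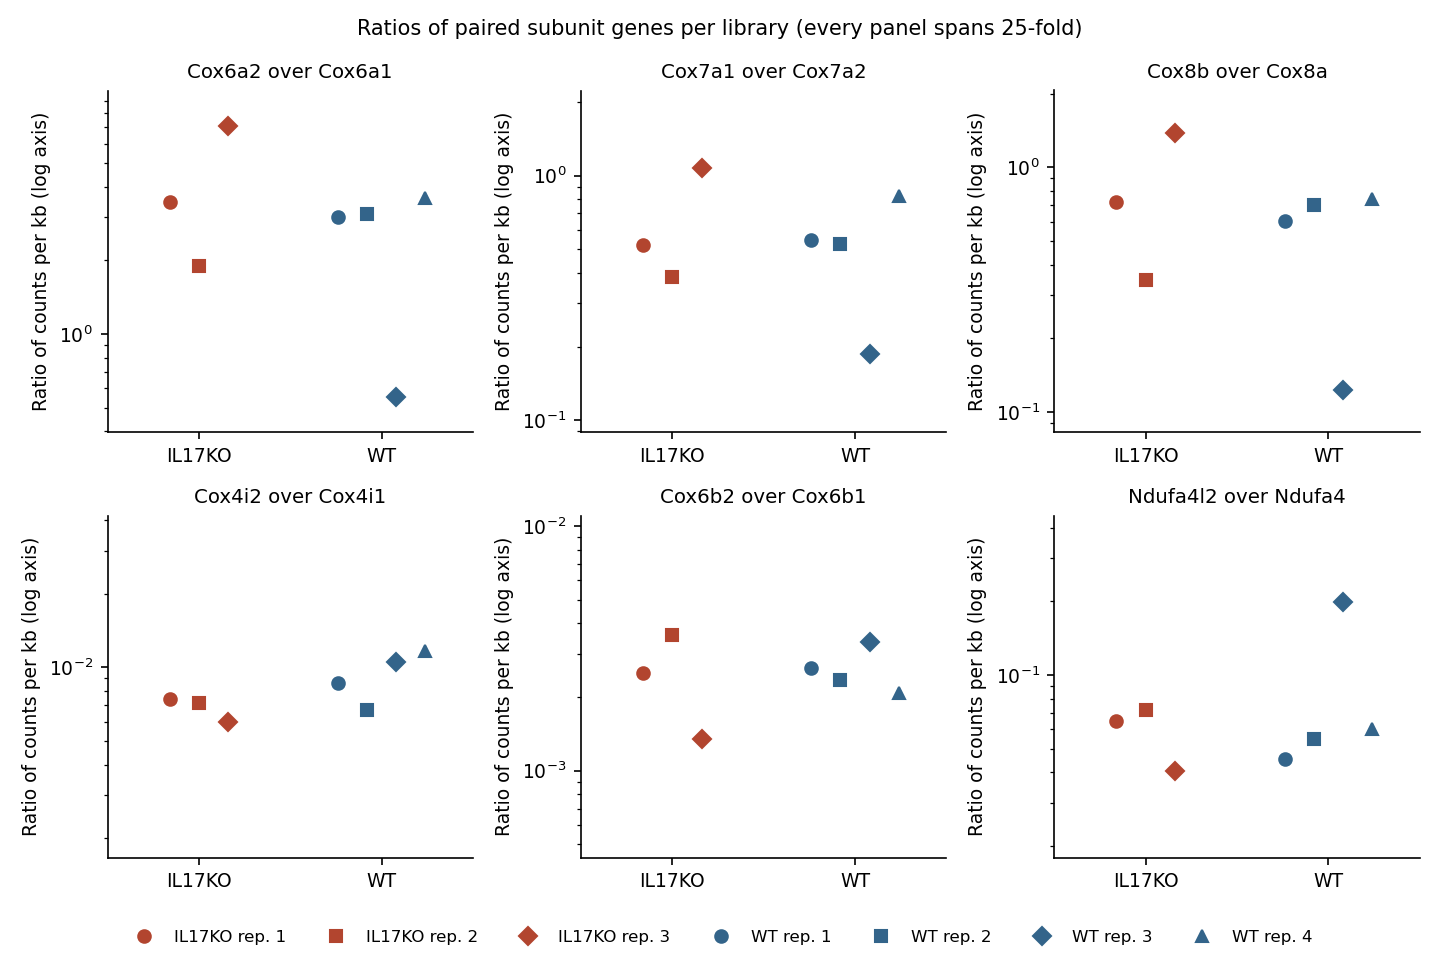
Ratio of counts per kb for 6 pairs of subunit genes in each library on a log axis, IL17KO left and WT right, every panel covering the same fold range. The 3 muscle forms (top row) are lowest in WT replicate 3, and Ndufa4l2 over Ndufa4 is highest there, at 0.199.

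Promoters of the 2 muscle forms with an entry are shown beside those of their general forms, because the pairs differ so widely in how much they vary. The sequences are RefSeq's on GRCm38.p6, 250 bases before to 50 after the start of each gene, 5′ to 3′ on the gene's strand. Cox7a1 is at chr7:30183921-30184220 (plus strand), Cox7a2 at chr9:79759804-79760103 (minus), Cox8b at chr7:140900397-140900696 (minus) and Cox8a at chr19:7217567-7217866 (minus). Capitals mark CAGCTG, an E-box that muscle regulators of the MyoD family bind.
Cox8b: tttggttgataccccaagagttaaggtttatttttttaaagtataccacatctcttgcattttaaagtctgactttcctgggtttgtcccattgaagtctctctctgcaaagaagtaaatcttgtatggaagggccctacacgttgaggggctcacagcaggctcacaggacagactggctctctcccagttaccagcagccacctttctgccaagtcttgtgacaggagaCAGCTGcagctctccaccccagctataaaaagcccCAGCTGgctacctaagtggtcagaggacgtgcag
Cox8a: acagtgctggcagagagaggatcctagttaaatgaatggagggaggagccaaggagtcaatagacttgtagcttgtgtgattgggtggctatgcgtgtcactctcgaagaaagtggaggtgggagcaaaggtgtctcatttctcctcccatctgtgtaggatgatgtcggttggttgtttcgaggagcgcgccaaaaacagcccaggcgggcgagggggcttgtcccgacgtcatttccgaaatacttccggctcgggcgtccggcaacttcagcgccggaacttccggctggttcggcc
Cox7a1: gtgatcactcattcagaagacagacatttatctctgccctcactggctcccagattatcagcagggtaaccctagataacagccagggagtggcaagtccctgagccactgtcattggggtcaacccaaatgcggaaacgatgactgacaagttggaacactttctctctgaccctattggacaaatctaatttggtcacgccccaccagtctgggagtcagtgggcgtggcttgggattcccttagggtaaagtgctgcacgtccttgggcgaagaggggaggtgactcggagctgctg
Cox7a2: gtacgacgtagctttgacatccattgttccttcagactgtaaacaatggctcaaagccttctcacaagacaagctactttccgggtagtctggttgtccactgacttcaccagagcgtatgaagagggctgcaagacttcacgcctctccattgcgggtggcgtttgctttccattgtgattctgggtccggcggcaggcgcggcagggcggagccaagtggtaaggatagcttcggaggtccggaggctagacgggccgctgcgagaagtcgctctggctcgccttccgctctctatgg

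Of the 92 nuclear genes other than the 3 pseudogenes, 76 had a promoter in that table, which holds 27025 genes. CAGCTG, searched on both strands like the others, was in 6 of the 76 windows (7.89%) and in 18.3% of all windows, and of the 4 printed windows that of Cox8b alone holds it. GCGCATG, from the site of the respiratory gene regulator NRF1, was in 15 (19.7%), among them those of Cox6a1, Cox5b, Uqcrc1 and Sdhb, and in 4.41% of all windows. AAGATGG, from the site of YY1, was in 12 (15.8%), most of them of complex I genes, and in 7.28% of all windows. AAGGTCA, a core motif of the estrogen-related receptors, was in 8 (10.5%), among them those of Ndufb4 and Sdhd, and in 5.38% of all windows. None of the 4 strings contains another, each match is a description of letters only, and the windows were not set against the fold changes.

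The 13 mitochondrial genes fell into separate sets. The 8 with high levels were mt-Nd1, mt-Nd2, mt-Nd4, mt-Nd5 and mt-Nd6 of complex I, mt-Cytb, the catalytic mt-Co1 of complex IV and mt-Atp8 of complex V. All 8 had positive fold changes, between 0.30 and 0.49, all were highest in IL17KO replicate 3 and lowest in WT replicate 3, and 0 had an unadjusted edgeR p under 0.05. mt-Co1 stood at 17555, 14162 and 32189 CPM in IL17KO replicates 1 to 3, against 16803, 14235, 9782 and 19734 CPM in WT replicates 1 to 4, a log2 fold change of 0.49 ± 0.37 (SE, adjusted p = 0.987). IL17KO replicate 2 lay below 3 of the 4 WT libraries. mt-Nd5 stood at 21673, 13055 and 29562 CPM in IL17KO and 19366, 16018, 8706 and 17642 CPM in WT.

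The other 5 mitochondrial genes were mt-Nd3 and mt-Nd4l of complex I, mt-Co2 and mt-Co3, core subunits of complex IV, and mt-Atp6, the proton channel subunit of complex V. They were far scarcer, together 0.263%, 0.371% and 0.194% of the sum of the 8 in IL17KO replicates 1 to 3, against 0.451%, 0.675%, 0.263% and 0.192% in WT replicates 1 to 4. Per length mt-Co2 had 42.4 CPM per kb beside 11508 for mt-Co1, and mt-Atp6 had 53.5 beside 9789 for mt-Atp8, its neighbour, with which it shares 43 bases. Each of the 5 has an annotated pseudogene on chromosome 1 that is near-identical over at least 99.0% of its length in the GRCm38 annotation, and none of the 8 does. Of the 8, mt-Nd4 is matched by such a copy over 63.6% of its length, and mt-Co1 over 31.3%, with a further copy on chromosome 2 that is 97.6% identical over its whole length. How reads that match both places were counted is not given in the sources used here, so the levels of the 5 are uncertain and their share in the low counts was not tested.

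**Figure D4:**
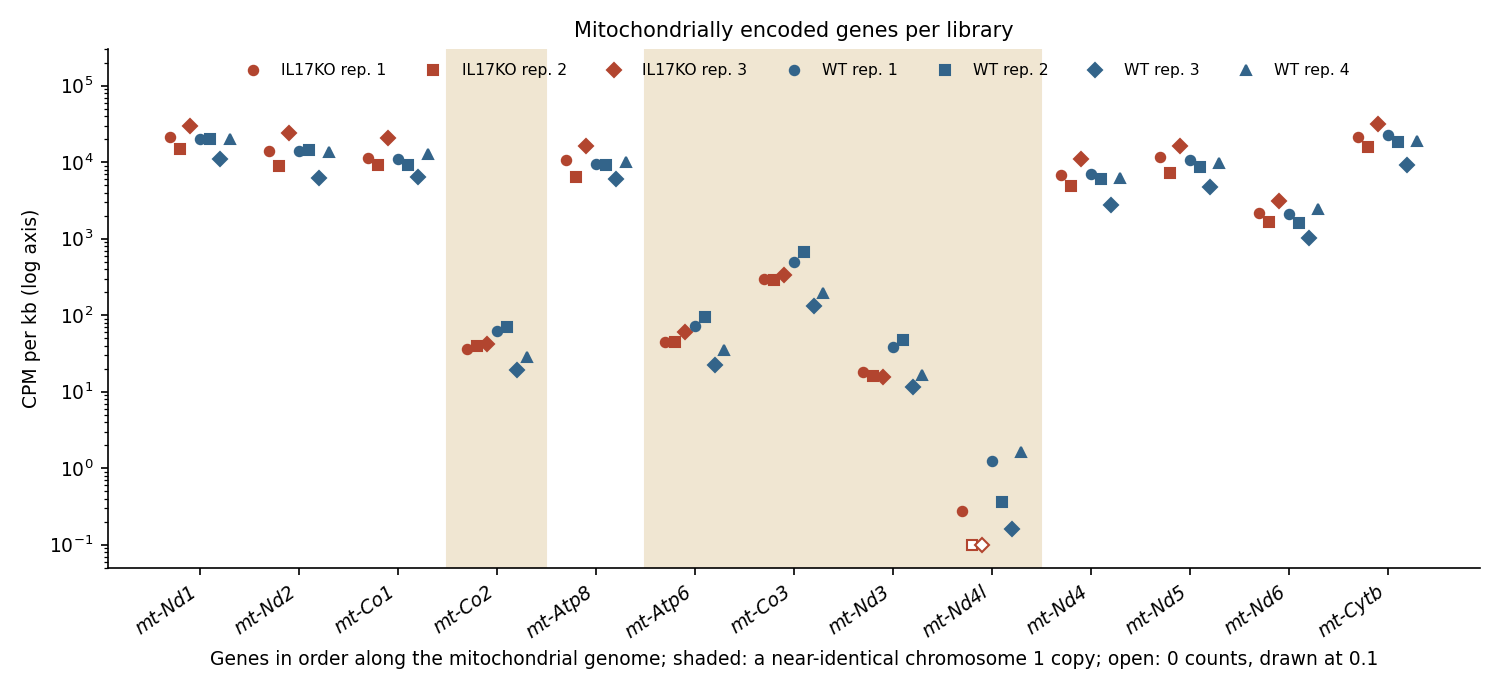
CPM per kb of the 13 mitochondrial genes in each library on a log axis, in order along the mitochondrial genome, with the 5 that have a near-identical chromosome 1 copy shaded. The shaded genes lie far below their neighbours, and in the 4 with more than a few counts WT replicates 1 and 2 are the highest libraries, not IL17KO replicate 3.

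In this set the 4 tested genes all had log2 fold changes below 0, at a median of −0.24, and their order of libraries differed from that of the 8. mt-Nd3 had 154, 143 and 122 counts in IL17KO replicates 1 to 3, against 291, 305, 83 and 155 counts in WT replicates 1 to 4. Its IL17KO libraries were close together, at 5.77 ± 0.47 CPM, and its WT libraries were not, at 9.90 ± 5.99 CPM (SD, n = 3 and 4). The log2 fold change was −0.77 ± 0.45 (SE, edgeR adjusted p = 0.987), and it was −0.59 without WT replicate 1, −0.42 without WT replicate 2 and −1.04 without WT replicate 3. mt-Co3 had 5670, 5727 and 5852 counts in IL17KO and 8360, 9751, 2161 and 4071 counts in WT. mt-Co2 had 601, 701 and 640 counts in IL17KO and 933, 875, 273 and 521 in WT, and mt-Atp6 had 745, 785 and 915 in IL17KO and 1061, 1209, 317 and 644 in WT. In all 4 the IL17KO values lay inside the WT range, WT replicate 2 was the highest library by CPM and WT replicate 3 the lowest. mt-Nd4l had 2, 0 and 0 counts in IL17KO and 8, 2, 1 and 13 counts in WT, too few to test.

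The copies were listed with few counts of their own. mt-Co3, mt-Atp6, mt-Co2 and mt-Nd4l are 100% identical to Gm28437, Gm10925, Gm28661 and Gm10222 over 783, 678, 681 and 294 aligned bases. mt-Nd3 differs from Gm28438 at 1 of 345 aligned bases, T3C, counted from the first base of the gene and shown in capitals in the first 33 bases of each.
mt-Nd3: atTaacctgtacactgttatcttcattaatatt
Gm28438: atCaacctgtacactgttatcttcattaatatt

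Gm28438, which is no oxidative phosphorylation gene by the names used and was picked after its values were seen, had 50, 53 and 96 counts in IL17KO replicates 1 to 3, against 2, 1, 0 and 0 counts in WT replicates 1 to 4. It is one of the 24 genes called by edgeR (adjusted p = 0.00824), and it missed the threshold without WT replicate 2 (adjusted p = 0.0563) and with the replicate block (adjusted p = 0.484). Gm28438 passed the count filter only through the IL17KO libraries, where it is high, so its call is a description and no separate support. All 3 IL17KO libraries were above all 4 WT libraries, and 3.89% of all tested genes had groups that did not overlap. Gm10222, the copy of mt-Nd4l, had 12, 5 and 13 counts in IL17KO and 1, 1, 0 and 2 in WT, and was not tested. The chromosome 1 copies of mt-Co2, mt-Co3 and mt-Atp6 had at most 15 counts in any library. A further copy of mt-Co2 on chromosome 2, Gm13341, is 95.9% identical over the whole length of mt-Co2 and had 56, 42 and 82 counts in IL17KO replicates 1 to 3, against 31, 37, 24 and 57 counts in WT replicates 1 to 4.

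Other mitochondrial pathways, listed with earlier results of these data known, also had 0 genes called. All 18 citric acid cycle and pyruvate dehydrogenase genes had positive fold changes, with a median of 0.22, and all 18 were highest in IL17KO replicate 3. Of 17 fatty acid oxidation genes 14 were positive (median 0.16), as were 7 of 9 genes for adenine nucleotide transport, uncoupling and mitochondrial creatine kinase (median 0.19) and 8 of 11 regulators of mitochondrial content (median 0.21). Ppargc1a, the coactivator PGC-1 alpha that drives mitochondrial gene expression in muscle, was at 18.2, 10.2 and 38.1 CPM in IL17KO and 17.2, 11.7, 4.27 and 24.6 CPM in WT. The 15 genes that express mitochondrial DNA were nearest to the median of all genes, with 10 positive and a median of 0.031.

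Of 41 further assembly factors and electron carriers, 35 were positive with a median of 0.13. Sdhaf1 alone had an unadjusted edgeR p under 0.05, as 3.04% of all tested genes did. Sdhaf1, which helps to insert iron-sulfur clusters into complex II, was at 17.3, 14.3 and 18.6 CPM in IL17KO replicates 1 to 3, against 11.9, 14.2, 12.9 and 14.2 CPM in WT replicates 1 to 4. The IL17KO libraries lay above the WT ones by a narrow margin, with a log2 fold change of 0.33 ± 0.13 (SE, edgeR adjusted p = 0.987). Of all tested genes, 3.89% had groups that did not overlap.

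**Figure D5:**
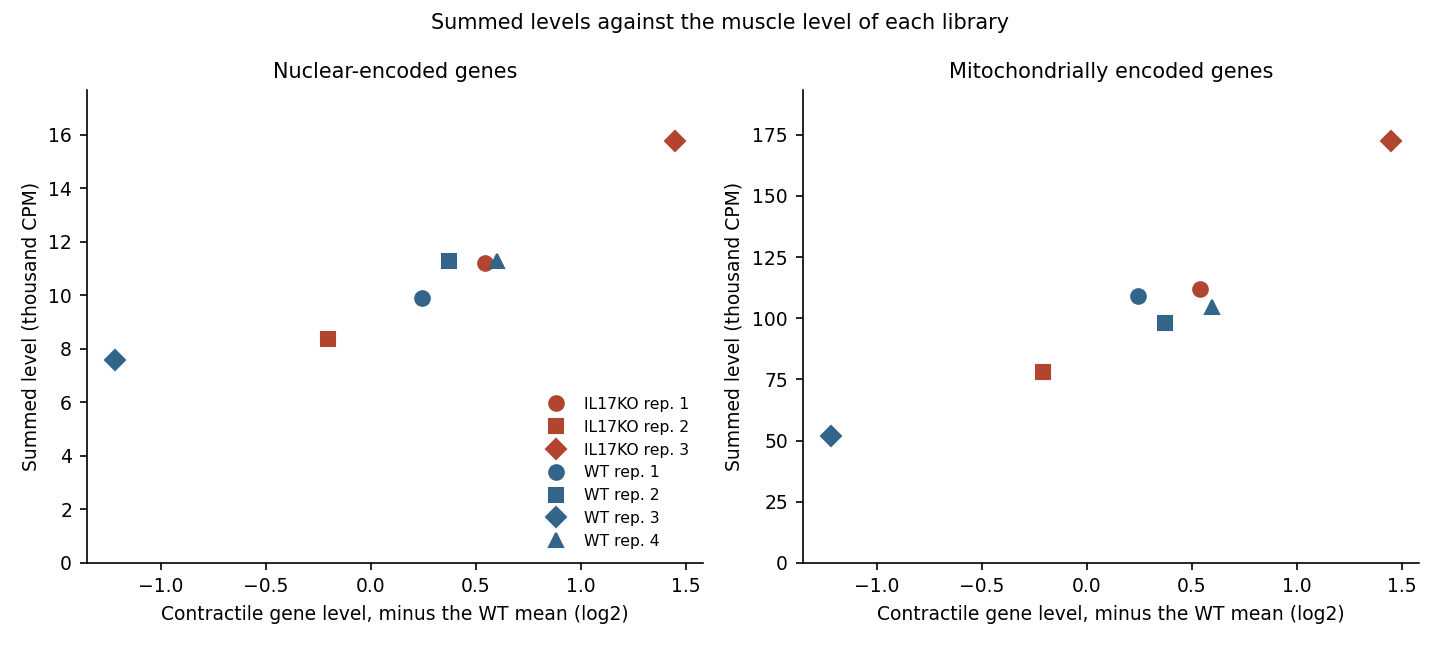
Summed CPM of the nuclear and the mitochondrial genes against the mean log2 level of 25 contractile muscle genes, relative to the WT mean, in each library. IL17KO replicate 3 lies at 1.45 and WT replicate 3 at −1.22, and libraries with a higher muscle level have larger sums, apart from small exchanges among the 4 in the middle.

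Marker lists of fibre and cell types stand beside these values as follows. Of 9 tested slow fibre genes 2 were positive, with a median of −0.015, where all 25 contractile genes were. Myh7, the slow myosin heavy chain, stood at 11.1, 13.7 and 12.2 CPM in IL17KO replicates 1 to 3, against 14.8, 15.9, 21.8 and 19.4 CPM in WT replicates 1 to 4, without overlap (log2 fold change −0.54 ± 0.16, SE, edgeR adjusted p = 0.987). The 6 tested neutrophil markers were all below 0 (median −1.02, 0 called), and their summed level was 49.8 to 107 CPM in IL17KO and 81.7 to 315 CPM in WT, highest in WT replicate 3. The 6 tested red blood cell markers were below 0 too (median −0.48), and summed to 168 to 392 CPM in IL17KO and 139 to 662 CPM in WT. Macrophage markers had 4 of 12 positive (median −0.15), endothelial markers 4 of 10 (median −0.034) and adipocyte markers 4 of 8 (median 0.0070), with 0 called in each. The groups did not overlap for 3 of the 12 macrophage markers, against 3.89% of all tested genes, and for 0 neutrophil, endothelial or adipocyte markers. An unadjusted edgeR p under 0.05 was held by 3 of 6 neutrophil, 1 of 12 macrophage, 2 of 8 adipocyte and 0 of 10 endothelial markers. Of all tested genes, 3.04% held one. The log2 fold changes ran from −0.34 to 0.92 for macrophage markers and from −3.71 to 1.33 for adipocyte markers. Fibroblast markers had 6 of 12 positive (median −0.00025), and Thy1, a surface protein, was called lower, at 93.1 ± 19.3 CPM in IL17KO and 243.3 ± 43.8 CPM in WT (SD, n = 3 and 4, edgeR adjusted p = 0.0463). With any 1 library left out Thy1 missed the threshold (adjusted p = 0.0684 to 0.309 by edgeR). The part of muscle or of any other cell type in the oxidative phosphorylation values was not tested.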

How the data were processed

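The deposited table gives, per the file headers, raw counts for each gene. It also gives a normalized signal that the authors made, per the file headers, by dividing the counts by 1 factor per library. The submitters' processing notes name GRCm39 as the build, TopHat and HTSeq for alignment and counting, and cutadapt, FastQC, bcl2fastq and DESeq2. Of versions, strand setting and multiply mapped reads nothing is said in those notes. Columns were matched to samples by the library names in the labels, and replicate numbers follow the sample titles. The 2 differ: WT replicates 1 to 4 are the libraries named WT3, WT4, WT5 and WT6, and IL17KO replicate 3 is the library named IL17KO5. The knockout columns are headed U17KO, which was read as IL17KO. Of 55414 rows, 6250 were blank in every column, among them 22 mitochondrial tRNA and 2 rRNA rows, and were not analysed here. Nothing in the labels says that libraries are separate animals, so p-values cover the spread among libraries, which may be technical.

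The test was edgeR 4.0.16 under R 4.3.3 (quasi-likelihood, robust, TMM, filterByExpr, two-sided, Benjamini-Hochberg over 15399 genes, threshold 0.05). The procedure was checked on simulated data in which genes were drawn independently. That check therefore does not cover variation that many genes share within a library. SEs are the log2 fold change over the square root of F. Sums, medians and ratios carry no test. The members, lists and named genes (every mitochondrial member, the paired subunit genes, and per complex the 2 most abundant and the 2 of smallest p) were chosen with earlier results of these data known, and 1 gene that this rule names is not reported here. A floor of 3 counts is 0.114 to 0.162 CPM and covers counting error only. Lengths and near-identical copies (BLAST 2.17.0, at least 95% identity over at least 80%) come from GENCODE's GRCm38 transcripts, an older build, so no coordinates from it are given.

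Alternatives were DESeq2 1.42.0, limma 3.58.1 (voom with quality weights, and trend on log2 of the deposited normalized signal plus 1), RLE, plain library totals, mitochondrial genes left out, 2 other filters, an adjusted p under 0.10, a replicate block, the muscle level as a covariate, each library left out, and WT replicate 3 with IL17KO replicate 3 left out.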

Additional observations from a re-analysis of the deposited data

Results flagged for a closer look

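In the group of 4 WT libraries, 70 sets of values were searched for a library that stands apart from the other 3, by the ratio of its gap to the range, and 8 were found where chance gives about 1 in 20. Most concern WT replicate 3, the library with the lowest muscle level. It was low for mt-Nd1, at 10577 CPM, for mt-Nd2, at 6426 CPM, and in the sums of all members, at 59416 CPM, of complex I, at 32210 CPM, of the mitochondrial genes of complex I, at 30080 CPM, and of those of complex V, at 1259 CPM. The same library was high in the ratio of Ndufa4l2 to Ndufa4 per length, at 0.199. WT replicate 4 was high for Cox4i2, at 2.78 CPM. The sums and genes share members, so these values are not independent of one another.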

How the results depend on the processing

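Of the members, 0 were called under any alternative at an adjusted p under 0.05 or 0.10. At an unadjusted p under 0.05 there were 0 as reported, 1 without a filter and 0 to 17 as libraries were left out in turn, with all 17 when IL17KO replicate 2 was left out (7.9% of all tested genes in that fit) and 1 (mt-Nd3) without WT replicate 3 (2.3% of all tested genes). The number of all genes called was 24 as reported, 56 with DESeq2, 64 with limma voom and 42 without a filter, and 8 to 21 as libraries were left out in turn. The cause of these changes was not tested.

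Signs of the medians rested on IL17KO replicate 3, the only library whose omission alone changed them. Without the pair of WT replicate 3 and IL17KO replicate 3, the median log2 fold change was −0.15 for nuclear genes, −0.18 for mitochondrial genes, −0.17 for complex I, −0.15 for complex II, −0.13 for complex III, −0.14 for complex IV and −0.19 for complex V. The log2 ratio of the mean sums was then −0.15 for nuclear genes, −0.13 for mitochondrial genes, −0.14 for complex I, −0.16 for complex II, −0.11 for complex III, −0.11 for complex IV and −0.15 for complex V. With the muscle level as a covariate the medians were −0.046 for nuclear genes, −0.053 for mitochondrial genes, −0.063 for complex I, −0.033 for complex II, −0.014 for complex III, −0.036 for complex IV and −0.070 for complex V. Leaving out 1 library at a time, the medians ran over −0.057 to 0.42 for nuclear genes, −0.029 to 0.58 for mitochondrial genes, −0.061 to 0.43 for complex I, −0.049 to 0.39 for complex II, −0.040 to 0.50 for complex III, −0.050 to 0.40 for complex IV and −0.073 to 0.40 for complex V, and the log2 ratios of sums over −0.034 to 0.43 for nuclear genes, −0.054 to 0.38 for complex II and −0.034 to 0.47 for complex V. Each of these low ends is the value without IL17KO replicate 3. Under the same omissions the log2 ratios of sums stayed positive for mitochondrial genes and for complexes I, III and IV. With plain library totals the median of all genes shifted to −0.098, and the medians of nuclear and mitochondrial genes were 0.10 and 0.23. On those totals the nuclear sum was 11111 ± 2551 CPM in IL17KO and 10265 ± 1488 CPM in WT (SD), a ratio of 1.08. The mitochondrial sum was 113470 ± 34959 CPM in IL17KO and 92774 ± 24281 CPM in WT (SD), a ratio of 1.22. For the complex I assembly factors the ratio was 0.98.

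Single members changed sign as well, with 0 of them called. Without that pair of libraries the log2 fold change was −0.055 for Atp5b, −0.12 for Cox4i1, −0.068 for Cox5b, 0.13 for Cox6a1, −0.15 for Cox6a2, −0.14 for Cox6b1, −0.53 for Cox7a1, −0.089 for Cox7a2, −0.40 for Cox8b, −0.34 for Ndufa4, −0.018 for Ndufb4, −0.11 for Sdhc, −0.10 for Sdhd, −0.032 for Uqcr10, −0.15 for Uqcrq and −0.097 for mt-Co1. With the muscle covariate it was −0.019 for Cox4i1, 0.11 for Cox6a1, −0.063 for Cox6b1, −0.21 for Cox7a1, −0.17 for Cox8b and −0.20 for Ndufa4. It was 0.085 for Cox6a1 and 0.086 for Ndufa4l2 with limma voom, 0.0015 for Cox6a1 and −0.0044 for Cox6b2 on the deposited normalized values, and −0.048 for Cox6b2 with plain totals. Leaving out 1 library at a time gave −0.044 to 0.41 for Cox4i1, −0.12 to 0.13 for Cox6a1, −0.034 to 0.32 for Cox6b1, −0.11 to 0.21 for Cox6b2, −0.24 to 1.06 for Cox7a1, −0.045 to 0.40 for Cox7a2, −0.16 to 0.029 for Cox8a, −0.10 to 1.02 for Cox8b, −0.17 to 0.46 for Ndufa4, −0.40 to 0.048 for Ndufa4l2, −0.043 to 0.43 for Sdhc, −0.042 to 0.44 for Sdhd and −0.074 to 0.57 for Uqcrq.

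Libraries that share a replicate number did not deviate together (correlations of 0.095, −0.57 and −0.57). With so few libraries, this check cannot exclude that the numbers pair them. The check and the replicate block used the numbers of the titles. By library name only WT replicate 3 (WT5) and IL17KO replicate 3 (IL17KO5) share a number. With the replicate block 2 genes were called and 0 members, the medians were 0.24 for nuclear and 0.37 for mitochondrial genes, and the log2 fold change was 0.0085 for Cox6a1 and −0.062 for Cox6b2. The call of Thy1 was lost under 10 alternatives, each single library left out among them.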
